A study of Mus musculus with 2 samples.

Results

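Summits of the NAT10 pulldown that lay in 2 or more annotated genes are described here. A summit is the single base at which the signal of the immunoprecipitated RNA over Input RNA peaked. They were taken from the deposited summit table by its own count of overlapped genes, and they numbered 240 of 2020 summits (11.9%, exact 95% interval 10.5 to 13.4). Of the 240, 231 lay in 2 genes and 9 in 3 genes. A further 1692 summits lay in exactly 1 gene and 88 in none. One locus held 112 of the 240 summits, the giant muscle gene Ttn with the antisense long non-coding RNA (lncRNA) gene Gm13938, and it is reported apart. The other 128 summits fell in 85 gene sets with 168 distinct genes, of which 67 sets had 1 summit and 18 had 2 or more.

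NAT10 adds acetyl groups to cytidines of RNA, and the series set out to find mRNAs associated with it in the heart. Wild-type mice received AAV9-cTnT-FLAG-NAT10, a viral vector, under the skin at day 1 after birth, and hearts were taken 20 days after injection. The cTnT promoter drives the tagged protein in heart muscle cells. Input was 10% of the lysate, and RIP was the RNA that anti-FLAG beads pulled from the remainder, giving 1 library each, with no pulldown from hearts without the tagged protein. Neither group had a replicate, so no test across samples was possible, no p-value was computed, and every interval covers counting error only. Each summit carries the authors' score, a -log10 p or q value of the peak caller. The median score was 12.5 over the whole list. The table gave no counts or Input levels, so depth is unknown, and a score can rise with abundance as well as with association. Of short lists of cell type markers, 7 of 15 cardiomyocyte and 4 of 10 endothelial markers had a summit of any kind. So did 2 of 8 fibroblast, 1 of 6 smooth muscle and pericyte, 1 of 6 leukocyte and 0 of 5 erythroid markers. The share over all annotated genes was not computed, and the first 2 lists were close. These counts therefore do not check the labelled tissue. Ttn was the single marker among these lists that had a shared summit.

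Many mammalian genes overlap a neighbour. Genes on opposite strands can overlap at their 3' ends (convergent genes), at their 5' ends (divergent genes), or with one lying inside an intron of the other, and lncRNA genes are often annotated antisense to a coding gene. On the same strand, annotation also holds readthrough models that join 2 neighbouring genes, and separate identifiers for one RNA. The table listed the strand of genes and not of reads, so reads at a shared summit cannot be assigned to either gene.

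Sequence could be shown for the few shared summits that lay in a RefSeq promoter window of GRCm38.p6, the build that the positions of the table match, and for an RNA with 2 identifiers. Of the 240 shared summits 2 lay in such a window. The first, with a score of 3.34 at 55973631 on chromosome 16, lay in the last exon of Zbtb11os1 and the last intron of Gm28037, both lncRNA genes on opposite strands. It fell 173 bases before a start of Zbtb11, a zinc finger gene, but inside the RefSeq GRCm38 bounds of that gene. The second, with a score of 3.01 at 25228728 on chromosome 7, lay in the 3' UTR of Gsk3a, a kinase of glycogen metabolism, and in the last exon of the antisense lncRNA 9130221H12Rik, 5 bases after a start of the latter. In both sequences the summit base is in capitals, and both are given on the plus strand. The 250 bases before this Zbtb11 start, chr16:55973554-55973803, were 66% G or C. The 29 bases around the Gsk3a summit were chr7:25228714-25228742.
Zbtb11 promoter: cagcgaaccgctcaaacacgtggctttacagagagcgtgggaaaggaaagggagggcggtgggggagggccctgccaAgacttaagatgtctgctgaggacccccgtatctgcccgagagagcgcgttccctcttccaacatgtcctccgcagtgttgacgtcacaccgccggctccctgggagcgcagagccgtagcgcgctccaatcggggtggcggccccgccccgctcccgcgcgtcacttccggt
Gsk3a with 9130221H12Rik: tagatgctgggggtAgttcatttacctct
The pattern CNNCNNCNNCNN, spaced cytidines of the kind reported around acetylated sites, occurred at 4 places on the printed strand of the Zbtb11 window and 6 on the other. The Gsk3a stretch held 0 on the printed strand and 1 on the other. Matches may overlap each other, and of 32851 RefSeq promoter windows 83.4% held the pattern on either strand in the same 250 bases and 24.8% in the same 29 bases.

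A further shared summit belonged to 2 identifiers with 1 name. Rmrp, the RNA of the ribonuclease MRP that cuts ribosomal RNA precursors, scored 124 at 43492915 on chromosome 4, in the last exon of both partners. The partners were ENSMUSG00000088088, a ribozyme of 271 bases, and ENSMUSG00000115420, a lncRNA of 281 bases, both named Rmrp in GENCODE release M39. The longer transcript contained the whole sequence of the shorter one, which is shown here as the sequence that both identifiers cover.
Rmrp ribozyme transcript: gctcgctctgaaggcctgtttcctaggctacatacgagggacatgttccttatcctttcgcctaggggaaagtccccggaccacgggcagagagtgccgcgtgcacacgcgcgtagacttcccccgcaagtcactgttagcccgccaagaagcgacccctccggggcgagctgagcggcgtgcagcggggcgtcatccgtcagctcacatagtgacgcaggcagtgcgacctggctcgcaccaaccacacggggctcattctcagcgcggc

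Of the 128 summits outside Ttn, opposite strands held 86 summits (67.2%, 58.3 to 75.2) and the same strand 18 (14.1%, 8.55 to 21.3). For 24 summits (18.8%) the strand of at least 1 partner was not given in the sources used here. By gene set, 58 sets were on opposite strands, 15 on the same strand and 12 unresolved. Among the unresolved sets, those of Ankrd11 with Gm20388 and Gm45894 and of ENSMUSG00000098178 also held genes on known opposite strands. The opposite-strand counts are thus lower bounds. Both genes of 64 of the 80 sets of 2 were present in GENCODE M39, and in every one of these 64 the genes still overlapped there. On opposite strands, 23 sets had a gene inside the other, 22 overlapped at their 3' ends and 7 at their 5' ends, and 6 could not be placed.

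The sharing depends on the annotation: under RefSeq GRCm38 gene bounds 62 of the 128 summits were still in 2 or more genes and 66 were in exactly 1, while 53 summits outside the 240 became shared, and the shared part of the list was then 5.69%.

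The summits usually lay in an exon of one partner and an intron of the other. Of the 128, 77 (60.2%, 51.1 to 68.7) were in an exon or UTR of 1 gene and an intron of another, 49 (38.3%, 29.8 to 47.3) in an exon or UTR of every partner, and 2 (1.56%) in introns throughout. A 3' UTR of at least 1 partner held 61 summits (47.7%) and 3' UTRs of 2 partners 7 (5.47%). Among 1569 summits in exactly 1 gene other than Ttn, 3' UTRs held 43.3%, exons 47.7% and introns 6.95%. Opposite-strand summits were in exons or UTRs of every partner in 37 of 86 cases (43.0%, 32.4 to 54.2), and same-strand summits in 8 of 18 (44.4%, 21.5 to 69.2). Summits of unresolved strand were so in 4 of 24 (16.7%, 4.74 to 37.4), and their strand could shift either share.

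**Figure D1:**
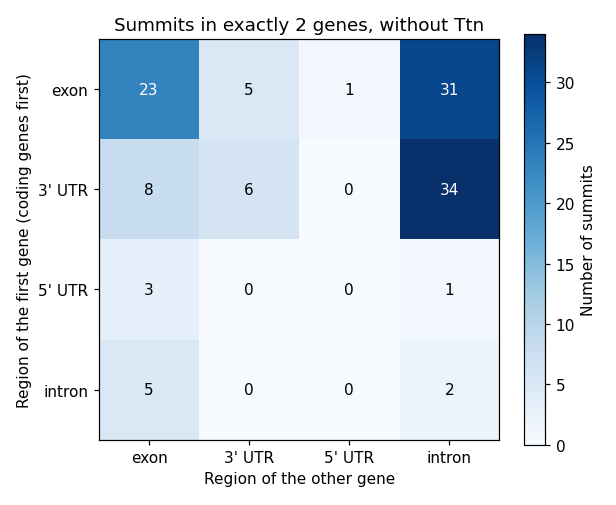
Number of summits by region of both genes, for the 119 summits in exactly 2 genes outside Ttn. Rows give the first gene and columns the other, with coding genes put first and, within a kind, genes with the summit in an exon first. The largest cells are a 3' UTR against an intron (34) and an exon against an intron (31).

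Partners without a protein were common. At least 1 partner was not a coding gene at 80 of the 128 summits (62.5%, 53.5 to 70.9), and an annotated lncRNA took part at 53 (41.4%, 32.8 to 50.4). The genes were 115 protein-coding genes, 33 lncRNA genes, 4 loci still to be experimentally tested (TEC), 1 ribozyme, 4 genes that carry a symbol but were absent from M39, and 11 identifiers with neither symbol nor M39 entry. A lncRNA lay opposite a coding gene in 28 of the 32 sets with a lncRNA. At the 71 summits of a coding gene with 1 non-coding partner, 34 lay in an exon or UTR of the coding gene and an intron of the other (47.9%, 35.9 to 60.1). The reverse, an intron of the coding gene and an exon of the other, was seen at 5 (7.04%, 2.33 to 15.7), and 30 (42.3%) lay in exons or UTRs of both. The non-coding partners rarely had a summit of their own. Of 49 such genes 2 (4.08%) had a summit elsewhere that they shared with no gene, and none of the 33 lncRNA genes did. Among coding partners 23 of 119 had one (19.3%). A gene that lies wholly inside its partner can have no such summit. In 27 of the 85 sets 1 gene lay inside the other in M39, so these shares do not compare like with like.

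The median score of the 128 summits was 10.6 (quartiles 5.15 and 23.5), against 10.5 (5.32 and 22.7) for summits in exactly 1 gene other than Ttn. The lowest score was 1.32 and the highest 215, and 57 (44.5%) reached the median of the list, against 44.3% of those in exactly 1 gene. The median was 10.7 on opposite strands, 7.63 on the same strand and 10.8 where strand was unresolved. It was 8.26 with a lncRNA partner and 11.2 where all genes were coding, with counting intervals of 5.45 to 12.9 and 6.15 to 21.8. These intervals treat summits of 1 gene set as independent, so they do not compare both kinds. Summits that touched a 3' UTR had a median of 12.8, close to 13.3 for 3' UTR summits in exactly 1 gene.

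**Figure D2:**
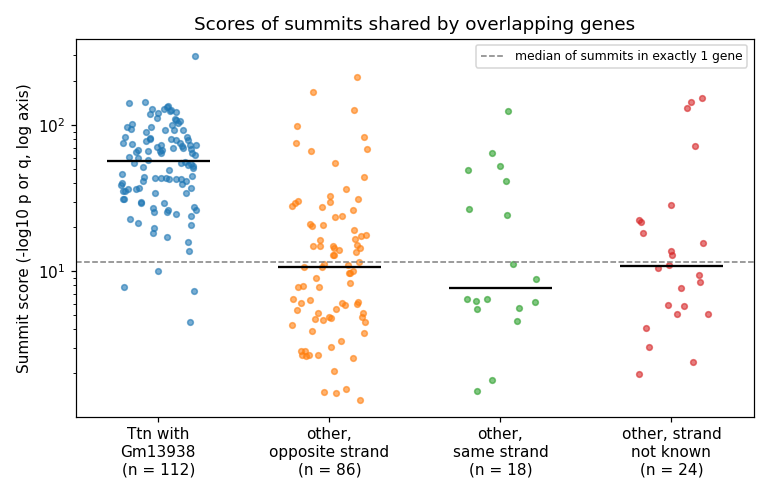
Score of every shared summit (-log10 p or q, log axis) by kind of overlap. Points are summits, black bars are medians and the dashed line is the median of summits in exactly 1 gene, 11.5. That line includes Ttn summits, and without Ttn the median is 10.5. Ttn with Gm13938 stands at 56.6, and the other 3 groups lie between 7.63 and 10.8.

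Ttn encodes titin, the spring of the sarcomere, and Gm13938 (ENSMUSG00000086354) is annotated on the opposite strand within it. In the table Gm13938 ran from 76722776 to 76786708 on chromosome 2 in GRCm38, a length of 63933 bases. All 112 Ttn summits between these bounds were shared, and the other 123 Ttn summits were not. RefSeq gene bounds of GRCm38 placed none of the 112 in a second gene. The 112 summits belonged to 23 peaks, and the largest peak held 41 of them. In Ttn, 111 lay in exons and 1 in intron 276. In Gm13938, 94 lay in intron 1, 9 in intron 2, 6 in intron 3, 2 in the last intron and 1 in exon 3. That single summit in exons of both genes had a score of 73.1 at 76780952, in exon 265 of Ttn. The one in introns of both had the highest score of the locus, 297 at 76774734.

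Nearly all Ttn summits lay in an exon or UTR of Ttn, 111 of 112 shared and 119 of 123 unshared ones. The shared summits fell in 63 Ttn exons, and neighbouring ones were a median of 437 bases apart. The largest gap was 3079 bases. Exon 309 alone held 37 summits with a median of 81.0, and exon 287 held 6 with a median of 99.5. Gm13938 lies wholly inside Ttn, so it could have no summit outside Ttn. The transcription start closest to each of the 112 summits was nevertheless that of Gm13938, so a list built on the closest start would name the lncRNA at all of them.

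Scores inside the overlap were higher than elsewhere in Ttn, with a median of 56.6 (quartiles 35.4 and 81.8) against 31.2 (19.5 and 56.4). The 26 summits on the 3' side of Gm13938 had a median of 53.4, and the 97 on the 5' side had 26.8. Without exon 309 the median inside fell to 43.0. The median of the overlapped stretch lay nearer to that of the adjoining 3' part of Ttn than to that of the 5' part. Counting intervals of the overlapped and the 3' medians were 45.2 to 67.5 and 35.2 to 75.2. They treat neighbouring summits of 1 peak as independent, so they do not compare the stretches.

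**Figure D3:**
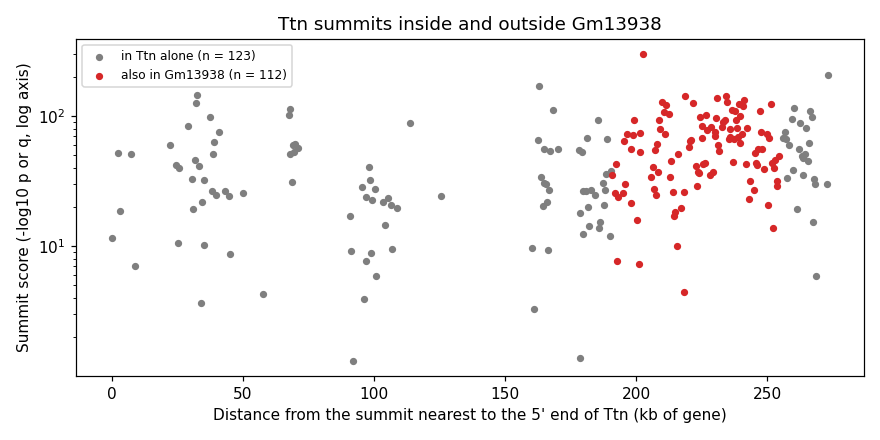
Scores of the 235 Ttn summits (log axis) against distance along the gene in kb from the summit nearest to its 5' end. Red points also lie in Gm13938 (112) and grey points in Ttn alone (123). The red points form 1 block, with 26 grey points on its 3' side.

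Of a list of 34 sarcomere and Z-disc genes 20 had a summit and 5 of these a shared one (25%, 8.66 to 49.1), namely Ttn, Myom1, Nrap, Cmya5 and Xirp2. Over all 919 coding genes with a summit 116 had a shared one (12.6%), which lies inside that interval. The layout of shared summits differed among these genes. Myom1, a protein of the M-band, shared all 9 of its summits with ENSMUSG00000097625, a gene without a symbol whose strand was not resolved. Their scores were 131 in the 3' UTR, 22.3 in exon 4, 13.7 in exon 12, 10.5 in exon 23, 9.42 in exon 7, 7.66 in exon 11, 5.78 in exon 21, 4.09 in exon 19 and 1.98 in exon 5. All 9 were in exons or the 3' UTR of Myom1 and in introns of the partner, over 90277 bases. The partner had 1 further summit of its own, in an intron, with a score of 37.6.

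Cmya5, which encodes the muscle scaffold myospryn, shared 8 of its 25 summits with the antisense lncRNA A630019I02Rik. All 8 lay in exon 2 of Cmya5, while in the lncRNA they passed through exon 1, intron 1, exon 3, the last intron and, for 4 of them, the last exon. The scores ranged from 5.54 to 29.3 with a median of 13.96, against 8.46 over the 17 unshared summits of the gene. Shared and unshared summits were a similar distance apart, 450 and 477 bases at the median. The 2 summits in lncRNA introns scored 14.9 and 13.5, inside the range of the 6 in its exons.

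Xirp2, an actin-binding protein of the intercalated disc, shared 4 of 6 summits with the antisense lncRNA Gm13601. These were in exon 7 of Xirp2 and intron 1 of Gm13601, and they scored 9.65, 4.89, 4.71 and 4.47. Its 2 unshared summits, both in its 3' UTR, scored 51.6 and 7.63. For this gene the shared summits were the weaker ones by median, 4.80 against 29.6. Sharing and region cannot be told apart here.

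Nrap, an anchoring protein of myofibril ends, had 3 shared summits among 20, and they were of different kinds. The strongest shared summit outside Ttn, 215 at 56320172 on chromosome 19, lay in the 3' UTRs of both Nrap and Habp2, a circulating protease, whose genes converge with an overlap of 801 bases in M39. A second, 76.0 at 56364298, lay in intron 17 of Nrap and exon 1 of the antisense lncRNA Gm17197. The third, 14.8 at 56365433, lay in exon 16 of Nrap and the last intron of Gm17197. The 17 unshared Nrap summits ranged from 5.45 to 70.4, so that both of the stronger shared summits were above them. The unshared 70.4, in exon 18 at 56364020, belonged to the same peak as the shared 76.0.

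**Figure D4:**
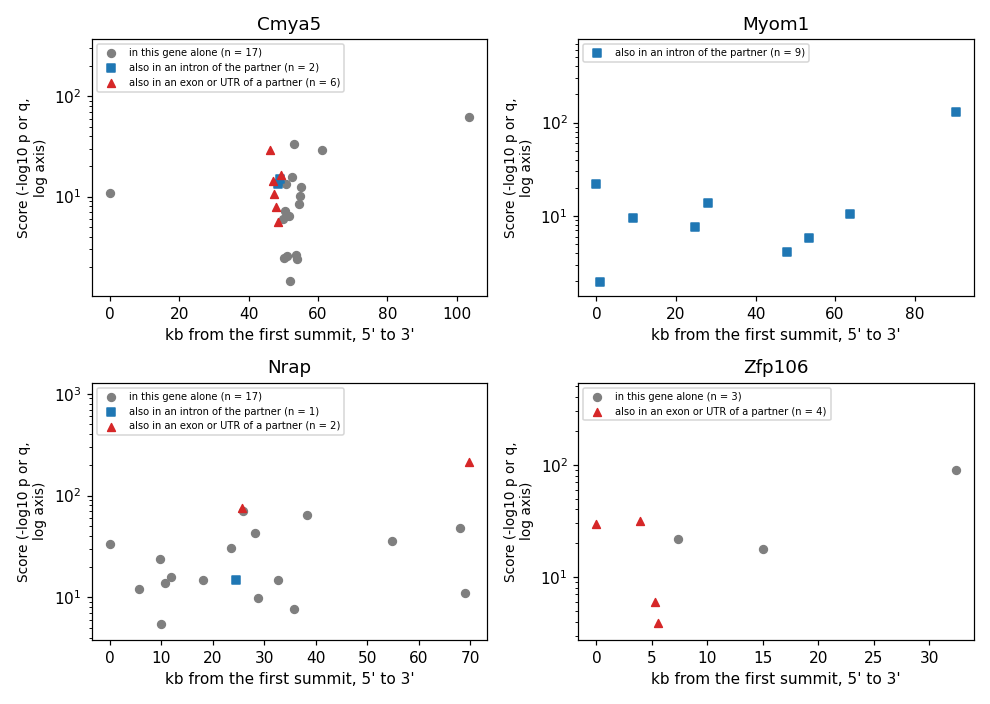
Scores of all summits (log axis) of Cmya5, Myom1, Nrap and Zfp106 against distance in kb from the first summit of each gene. Grey circles lie in that gene alone, blue squares also in an intron of a partner, and red triangles also in an exon or UTR of a partner. All 9 Myom1 summits are blue squares, and the highest Nrap point (215) is the one shared with Habp2.

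Of 16 genes of calcium handling and ion channels 7 had a summit and 2 of these a shared one (28.6%, 3.67 to 71.0), an interval that also holds the 12.6% of all coding genes. Trdn, which encodes triadin of the calcium release complex, had 2 shared summits of 16.6 and 5.45, both in its intron 10 and in intron 1 of the antisense lncRNA D830005E20Rik. They were the only summits outside Ttn that lay in introns of every partner. Atp2a2, the calcium pump SERCA2, had a shared summit of 1.57 in intron 2 and the last exon of the TEC locus Gm43361, whereas the median of its 3 unshared summits was 11.6. Of the 10 listed translation genes 6 had a summit, and of the 13 mitochondrially encoded genes 6 did. None of either list had a shared one (0 of 6, upper limit 45.9% each). With 6 genes, even 0 could not be told apart from 12.6%, so these counts decide nothing.

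The 5 summits in an intron of the coding gene and an exon of the non-coding partner belonged to 4 coding genes. Atcay, which encodes caytaxin, had 2 of them, 82.4 and 1.48, in its intron 10 and the last exon of the antisense lncRNA Atcayos. Peak1, a pseudokinase, had 1 with a score of 64.4 in its last intron and the last exon of ENSMUSG00000076281 on the same strand. The others were those of Nrap with Gm17197 and of Atp2a2. Their scores thus ran from the bottom of the list to far above its median.

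At 23 summits an exon of a lncRNA was involved, with a median score of 10.0. Apart from Cmya5, Nrap, Atcay, Rmrp, Zbtb11os1 and Gsk3a, the group held Pcdh7, a cell adhesion protocadherin, with 5 summits in its 5' UTR or exon 1. They all lay in the last exon of the divergent lncRNA 4932441J04Rik, within 1646 bases, and scored 17.4, 15.2, 11.0, 6.30 and 3.79. Neither gene had a summit elsewhere. Single summits linked Slc39a7, a zinc transporter, with Gm20427 (11.2) on the same strand, and Cc2d1b with Gm17354 (10.0). Ndufs1, a subunit of respiratory complex I, was linked with Ino80dos (6.45), Flywch1 with 9530082P21Rik (5.85), and Myo18b, a muscle myosin, with 1700095B10Rik (2.67). A summit of 6.15 in exon 1 of 1110002E22Rik lay in what the table calls the 5' UTR of Gm5105, a lncRNA in M39.

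Partners that M39 does not hold, or lists as TEC, gave some of the strongest values. Mrpl12, a protein of the mitochondrial ribosome, had 170 at 120488537 on chromosome 11, in its 3' UTR and exon 1 of the opposite-strand gene ENSMUSG00000097658. Sox4, a transcription factor, had 153, 11.1 and 8.50, all in its 3' UTR and the last exon of ENSMUSG00000097461, whose strand was not resolved. Zfp106, an RNA-binding zinc finger protein, shared 4 of 7 summits with ENSMUSG00000097799 on the opposite strand. They scored 31.4, 29.8, 5.94 and 3.92 and were in exons of both genes, while the 3 unshared ones had a median of 21.6. Dsp, the desmosome protein desmoplakin, had 44.0 in its 5' UTR and the last exon of Gm10129, against a median of 13.4 over 17 unshared summits. Dync1h1, the dynein heavy chain, had 13.9 in exon 1 and the last exon of Gm35558, against 9.18 over 21 unshared summits.

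**Figure D5:**
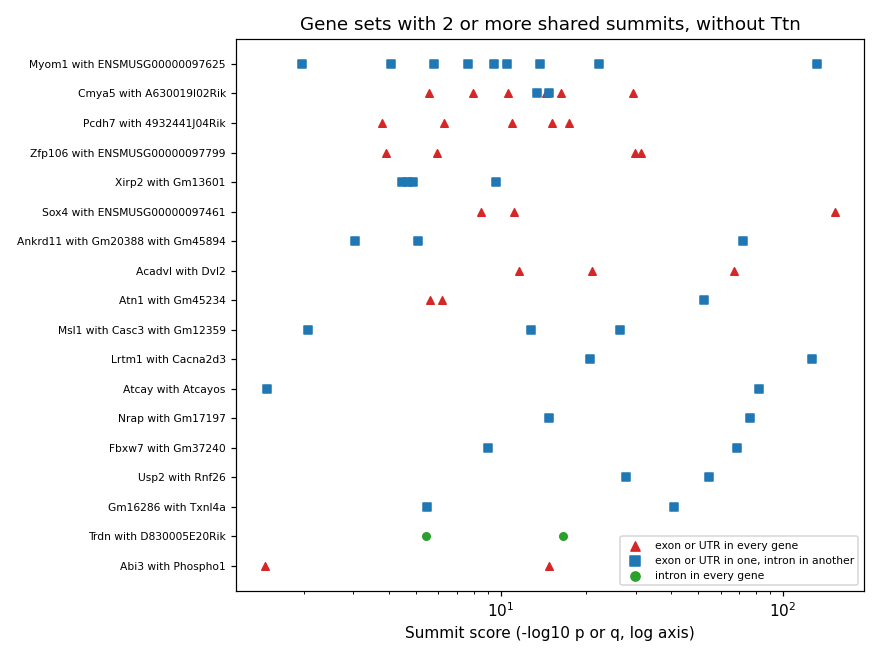
Score of each summit (log axis) for the 18 gene sets outside Ttn with 2 or more shared summits. Red triangles lie in an exon or UTR of every gene, blue squares in an exon or UTR of one and an intron of another, green circles in introns throughout. Scores of 1 set often span a wide range, as in Sox4 (8.50 to 153).

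Pairs of coding genes accounted for 46 summits, 27 on opposite strands, 13 on the same strand and 6 unresolved. Genes with a symbol but absent from M39, here Gm20388, Gm28038 and Gm17651, were taken as coding. The 6 unresolved summits all had Gm20388 or Gm28038 as a partner. Of the 46 summits, 15 were in exons or UTRs of both genes (32.6%, 19.5 to 48.0). The other 31 were in an exon or UTR of 1 gene and an intron of the other (67.4%). Acadvl, which starts the oxidation of very long-chain fatty acids, converged with Dvl2, a Wnt signal transducer. It had 3 shared summits of 66.8, 21.0 and 11.6, in its last exon, exon 15 and exon 14, all within the 3' UTR of Dvl2. Acadvl and Dvl2 had no other summit, and RefSeq GRCm38 bounds placed all 3 in Acadvl alone. In the deposited annotation both genes were thus in the list only through these shared summits. Of the 24 listed genes of respiration and fuel use 17 had a summit, and Acadvl alone had a shared one (5.88% of 17, 0.149 to 28.7).

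Further convergent pairs had summits in 3' UTRs of both genes. Stk16, a kinase, and Tuba4a, an alpha tubulin, shared 32.5. Rad9b, a checkpoint protein, and Pptc7, a mitochondrial phosphatase, shared 23.8. Abi3 and Phospho1 shared 14.8 and 1.46, and Mmp24, a metalloproteinase, shared 5.20 with BC029722. Pkmyt1, a kinase that restrains mitosis, had 20.3 in exon 7, within the 3' UTR of Paqr4.

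Nested pairs placed a summit in an exon or UTR of one coding gene and in an intron of the other. Lrtm1, a leucine-rich repeat membrane protein, had summits of 127 in its 5' UTR and 20.7 in exon 2, and both lay in intron 27 of Cacna2d3, a calcium channel subunit. Fbxw7, the substrate receptor of a ubiquitin ligase, had 68.8 and 8.98 in its 3' UTR and intron 3 of Gm37240. Usp2, a deubiquitinase, had 54.8 and 27.9 in its 3' UTR and the last intron of the gene that the table calls Rnf26 (ENSMUSG00000111409, which is Gm49380 in M39).

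At 15 of the 18 same-strand summits every gene was a coding gene. After Rmrp and Peak1, the strongest were Atn1 with Gm45234 (52.2), Eif4e3, a cap-binding protein, with Gm20696 (49.1), and Gm16286 with Txnl4a (41.2 and 5.48), a spliceosome protein. Atn1, a transcriptional corepressor, had 2 further summits of 6.21 and 5.62 in exon 5, which were in exon 6 of Gm45234. On chromosome 8, Gm20388 held 8 summits in 6 gene sets, all in its intron 1, over 3023857 bases. These lay in the 3' UTR or last exon of Zdhhc7, Cox4i1, Fbxo31, Ankrd11, Spg7 and Rpl13 and scored 2.40 to 72.3. Gm20388 was not in M39 and its strand was not resolved, and it had no summit outside these genes.

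The 9 summits in 3 genes fell in 5 sets, with a median of 24.4. Ankrd11, a chromatin regulator, with Gm20388 and the lncRNA Gm45894 had 72.3, 5.08 and 3.05, all in its 3' UTR. Msl1, part of a histone acetyltransferase complex, had 26.4, 12.8 and 2.07 in its 3' UTR and in introns 1 of Casc3 and the lncRNA Gm12359. Fdx1l, Raver1 and AC163637.1 shared 26.6, in the last exon of Fdx1l and 3' UTRs of the other identifiers. Zc3h11a, under 2 identifiers, shared 24.4 with Gm38394, named Zbed6 in M39. The remaining set held ENSMUSG00000098178, ENSMUSG00000105361 and ENSMUSG00000106106 on chromosome 17, with 143 at 39847748 in the last exon of each. The RefSeq gene at that base was Rn18s-rs5, an 18S ribosomal RNA entry, and 18S RNA is a known substrate of NAT10.

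The 45 sets outside the rule for named genes had 1 summit each, 39 of them in an exon or UTR of 1 gene and an intron of another. Their scores ran from 1.32 to 36.4 with a median of 6.15, and 30 sets were on opposite strands, 7 on the same strand and 8 unresolved. The strongest was Cavin2, a protein of the caveolar coat, with 36.4 in its 3' UTR and intron 2 of the antisense lncRNA 9330175M20Rik. The other genes given here were chosen after their values were seen. In 6 of the sets the summit was in the 3' UTR of a coding gene and in intron 1 of an antisense lncRNA. The scores were 27.5 for Kdm7a with 4930599N23Rik, 19.04 for Chd8 with Gm26590, 8.26 for Sin3a with Man2c1os, 6.03 for Smarca2 with 4931403E22Rik, 2.85 for Slfn2 with Gm20234 and 1.32 for Zfp775 with Gm38804, the lowest of all shared summits. Etfb, an electron carrier of fatty acid oxidation, had 1.79 in exon 5 and exon 5 of Gm45233 on the same strand. Vsir, an immune checkpoint receptor, had 2.69 at a summit in its 3' UTR and in intron 39 of Cdh23, a cadherin of hair cells.

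Within a gene, shared summits were not uniformly the stronger ones. Among the 23 coding genes outside Ttn with both kinds, the median of the shared summits was higher in 10 and lower in 13. Ube3a, a ubiquitin ligase, had 7.77 at the summit shared with Gm44560 and 43.9 at its other summit. Heg1, a membrane protein of heart development, had 30.1 at the summit shared with ENSMUSG00000085550 and 5.30 at its other one.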

How the data were processed

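Per the submitters' processing notes, the tools used were fastp, BWA 0.7.12 for alignment, MACS2 2.1.0 and HOMER. The authors deposited 1 summit table of 2269 lines for 2020 summits, with a -log10 value of the peak caller as score. A spreadsheet error replaced its header, so p or q is not known. The notes name GRCm39, but 98.9% of 1914 gene lines lay inside the RefSeq GRCm38 bounds of their symbol, and 28.1% of 2140 lines inside GENCODE M39 bounds on GRCm39. Positions are therefore given as GRCm38, and M39 supplied only names, types, strands, gene overlap and the Rmrp transcripts.

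Each summit was counted 1 time, with regions as the table gives them at the summit base. Strands came from M39 for 155 of 170 genes, from the table for 8 and from RefSeq for 1, and were unknown for 6. Genes without a table symbol were taken as non-coding where M39 lacked them, since 53 of 54 such genes in M39 were. Those with a table symbol were taken as coding, since 918 of 919 such genes in M39 were. Shares have exact (Clopper-Pearson) 95% intervals, and medians have intervals from binomial order statistics (Python 3.11.15, pandas 2.3.3, scipy 1.17.1). The classification was tested on simulated data. Members, lists and alternatives were chosen with earlier results of these data known. Named sets were those with 2 or more summits or 3 genes, the 15 with the highest score, the 5 highest on the same strand, those in exons or UTRs of all genes at or above the list median, those in a lncRNA exon, and those with both partners in the lists. Others, list members such as Atp2a2 and Ube3a among them, are named as examples after their values were seen. Alternatives changed the score threshold, the counting of summits, the gene bounds and the gene types. Some gene sets that the naming rule picks are not reported here.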

Additional observations from a re-analysis of the deposited data

How the results depend on the processing

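Of 73 recomputed values 47 stayed within the counting interval of the reported value, or within 1.5 times for the number of gene sets (86). The share of summits in 2 or more genes (11.9%) was 16.3% at or above the list median score, 23.4% at or above the upper quartile, 8.12% with the strongest summit per peak, 8.43% per gene set, 5.69% under RefSeq GRCm38 gene bounds and 2.23% with coding genes only. RefSeq did not place the 112 Ttn summits in a second gene, and 62 of the other 128 stayed shared. The median score of shared summits (27.5) was 46.2, 67.2, 15.8, 13.4, 10.6 and 11.2 under these settings in turn, and that of summits in exactly 1 gene (11.5) was 26.7, 51.3, 13.8 and 12.8 at the median, the upper quartile, per gene set and under RefSeq bounds. The difference between both medians rested on Ttn and its many summits, and per gene set shared summits were not higher. Gene sets fell to 45 at the median score, 26 at the upper quartile and 31 with coding genes only. Outside Ttn, opposite strands made up 67.2%, and 52.2% under RefSeq bounds. The share with a lncRNA partner (41.4%) was 23.1% at the upper quartile and 64.3% under RefSeq bounds, where gene types are those of RefSeq. With Ttn included, the shares were 82.5% on opposite strands, 77.9% in an exon of one gene and an intron of the other, 20.8% in exons or UTRs of all genes and 68.8% with a lncRNA. RefSeq bounds carry no exon map, so regions were not recomputed there. No paired analysis was possible because each group had 1 library. The table holds only summits past its threshold, with a lowest score of 1.32, and no depth.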
